A study of Homo sapiens with 18 samples.

Results

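The 10 genes described here encode 8 cadherins (CDH1, CDH2, CDH3, CDH4, CDH6, CDH11, CDH13 and CDH17) and the 2 catenins CTNNA1 and CTNND1. They were chosen by name, as the rows of the deposited expression table that carried these symbols, and all 10 were found among its 40266 gene symbols. A gene was tested where it reached at least 1 TPM (a level scaled to the library's total and corrected for transcript length) in at least 3 of the 18 libraries. Of the members, 8 were among the 16093 genes tested, while CDH4 and CDH6 stayed too low. The libraries were polyA RNA sequencing of 2 pancreatic ductal adenocarcinoma (PDAC) cell lines, Panc1 and Panc89. Panc1 came from a primary tumour and served as the mesenchymal model, whereas Panc89 came from a lymph node metastasis and served as the epithelial model. Each line was measured as parental cells, as Holoclone cells and as Paraclone cells, with 3 libraries in each of the 6 groups and no treatment in any of them. Holoclone and Paraclone cells had each been grown out of a single cell and were kept for their colony shape, so each of the 4 clone groups stands for 1 clone. The 3 libraries of a group were taken from different passages of the same cells, so the p-values measure the spread between passages and not between independent clones.

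Classical cadherins are calcium-dependent adhesion molecules that bind the same or a related cadherin on the neighbouring cell. Inside the cell their tails bind p120-catenin (CTNND1), which holds the cadherin at the membrane, and beta-catenin, which links it through alpha-catenin (CTNNA1) to the actin cytoskeleton. E-cadherin (CDH1) is the main cadherin of epithelia, and its replacement by N-cadherin (CDH2) is a textbook feature of epithelial-mesenchymal transition (EMT).

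The line labels were checked against marker genes. The summed level of 4 epithelial genes (EPCAM and 3 keratins) lay between 2589 and 5014 TPM in Panc1 libraries and between 2679 and 3990 TPM in Panc89 libraries, so both lines carried epithelial keratin RNA. EPCAM alone was 1.73 TPM in Panc1 Paraclone, 29.2 TPM in Panc1 Holoclone and 178 to 279 TPM in the Panc89 groups. Of the 3 mesenchymal genes (VIM, FN1 and SPARC), vimentin (VIM) averaged 2465 to 4318 TPM in the Panc1 groups and 0.0653 to 0.361 TPM in the Panc89 groups. In each Panc1 group 1 of the 3 stayed under 1 TPM, and in each Panc89 group 2 did. The 3 summed to 4279 to 5158 TPM in parental Panc1, 2024 to 2857 in its Holoclone and 3660 to 5123 in its Paraclone, so the Panc1 Holoclone was lowest. They summed to 2.87 to 4.63 TPM in parental Panc89, 1.11 to 1.75 in its Holoclone and 7.24 to 24.3 in its Paraclone. Markers of endothelium were under 1 TPM in Panc1, and PECAM1 reached 60.1 TPM in parental Panc89 with VWF and KDR under 1 TPM there. Among 5 fibroblast genes only COL1A1 passed the filter, and among 4 immune genes CD68 made up most of the sum. In each library 12932 to 14199 genes exceeded 1 TPM, and pairs of replicates correlated at 0.954 to 0.992 across genes, which are not independent. TPM keep no read totals, so the depth of each library is unknown and no counting error can be given.

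**Figure D1:**
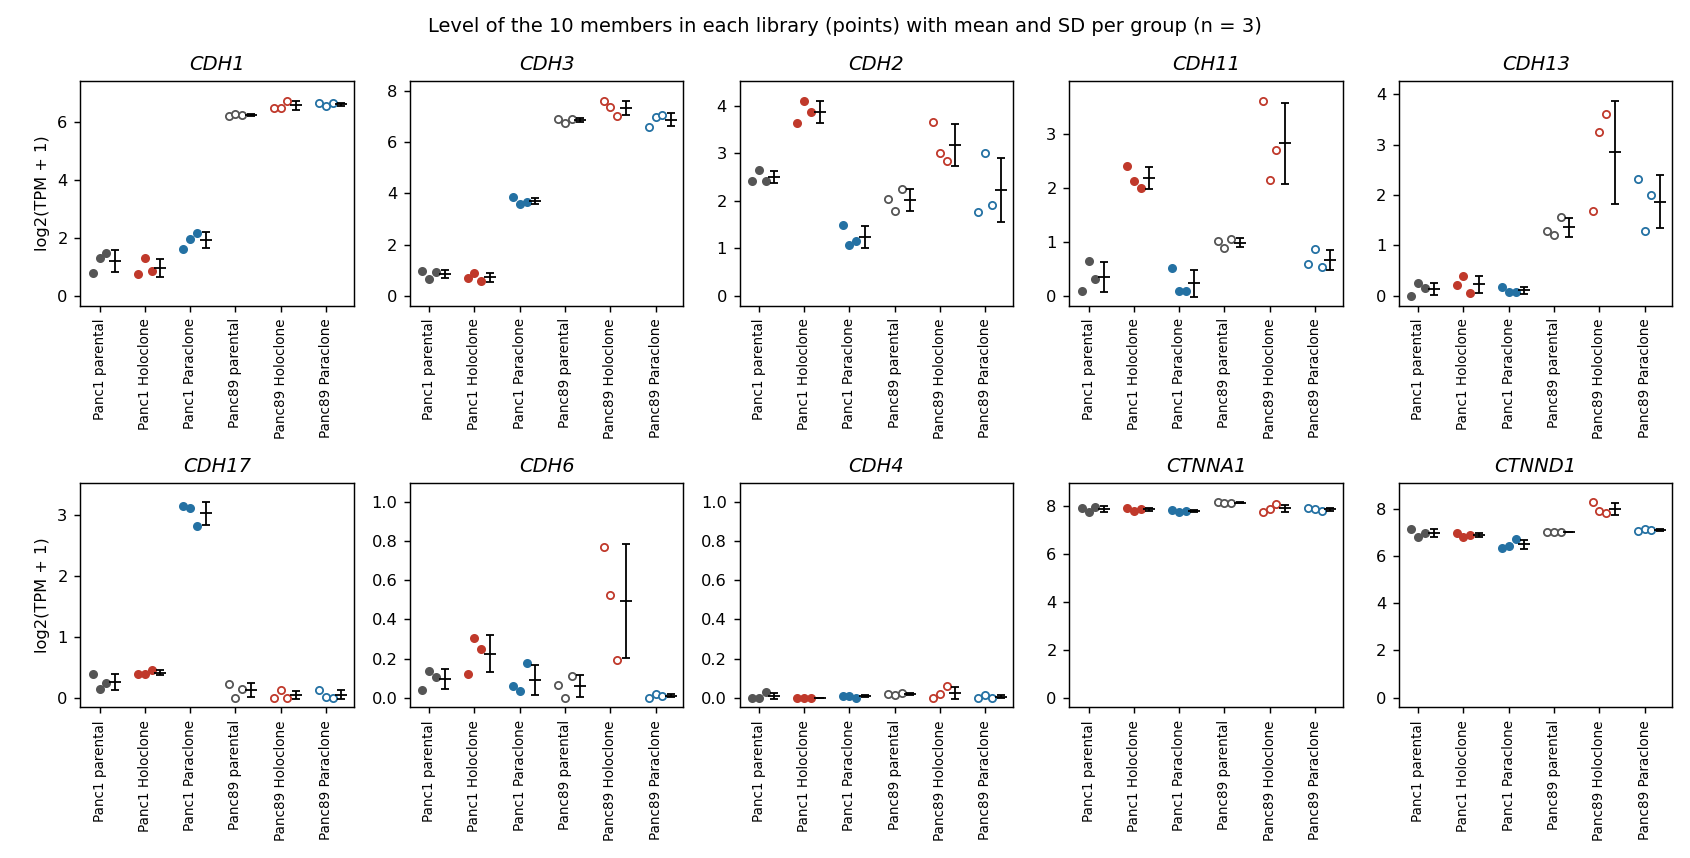
Level of each of the 10 members in every library, as log2(TPM + 1), with points for libraries and a bar for the mean and SD of each group (n = 3). The vertical axes differ between panels. CDH1 and CDH3 separate the lines, CDH2 and CDH11 are highest in Holoclone groups, and CDH17 is high in Panc1 Paraclone alone among the 6 groups.

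E-cadherin and P-cadherin (CDH3), 2 cadherins of epithelial cells, were far higher in Panc89 than in Panc1 in all 3 cell variants. CDH1 measured 73.3, 77.9 and 74.7 TPM in parental Panc89, against 0.721, 1.51 and 1.83 TPM in parental Panc1. The ratio of the means was 55.7, and the log2 difference was 5.05 (SE 0.188, limma adjusted p = 2.45e-12). Every log2 fold change here is a difference of log2(TPM + 1) levels, so for genes close to 1 TPM or below it comes out smaller than the ratio of the TPM. In bulk RNA, fewer cells with the transcript and less of it in each cell cannot be told apart. Between Holoclone groups CDH1 was higher in Panc89 by 5.61 on the log2 scale (adjusted p = 6.05e-13), and between Paraclone groups by 4.71 (adjusted p = 5.19e-12).

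CDH3 separated the lines too, but was not as low in the Panc1 Paraclone as in the other Panc1 cells. It measured 118.9, 106.8 and 119.1 TPM in parental Panc89 and 0.975, 0.587 and 0.908 TPM in parental Panc1, a log2 difference of 6.00 (SE 0.159, adjusted p = 4.61e-14). Panc1 Paraclone libraries held 13.4, 11.2 and 11.5 TPM, whereas Panc1 Holoclone libraries held 0.631, 0.843 and 0.483 TPM. No Panc1 Paraclone library overlapped with any parental or Holoclone library of that line. CDH3 was thus higher in Panc1 Paraclone than in the parental cells by 2.84 on the log2 scale (adjusted p = 3.45e-09), and lower in Holoclone than in Paraclone cells by 2.98 (log2 fold change -2.98, adjusted p = 1.21e-09). The Panc89 Paraclone, at 95.3, 124.6 and 132 TPM, still held 9.75 times the mean TPM of the Panc1 Paraclone.

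CDH1 moved less than CDH3 between the Panc1 clones. It measured 2.10, 2.89 and 3.51 TPM in Panc1 Paraclone and 0.671, 1.49 and 0.808 TPM in Panc1 Holoclone, without overlap, which put the Holoclone at -0.95 against the Paraclone on the log2 scale (SE 0.188, adjusted p = 0.00094). Against parental Panc1 the Paraclone was higher by 0.72 (adjusted p = 0.00989), a call lost without parental replicate 1 (0.51, adjusted p = 0.0572), without Paraclone replicate 3 (0.59, adjusted p = 0.0501) and with the 2 groups fitted alone (adjusted p = 0.0851). EPCAM ran the other way in these libraries, being higher in Panc1 Holoclone than in Paraclone cells by 3.48 on the log2 scale (adjusted p = 1.1e-10), and its part in the CDH1 and CDH3 values was not tested.

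In Panc89 neither gene separated the clones clearly. CDH1 measured 90.0, 88.7 and 107 TPM in Holoclone and 100.2, 94.0 and 99.8 TPM in Paraclone libraries, which overlapped, and the log2 difference of -0.05 had a 95% interval of -0.45 to 0.35. CDH3 measured 193.9, 162.5 and 130 TPM in Panc89 Holoclone libraries and overlapped with the Paraclone libraries as well. Its difference of 0.46 (adjusted p = 0.034) was no longer called without Holoclone replicate 1 (0.32, adjusted p = 0.141), Holoclone replicate 2 (0.45, adjusted p = 0.0852) or Paraclone replicate 1 (0.32, adjusted p = 0.169), among 8 alternatives that ended it.

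CDH1 and CDH3 lie side by side on chromosome 16 of GRCh38, with CDH3 at 68636189 to 68727468 and CDH1 at 68737292 to 68835537, both on the plus strand with 9823 bases between them. Over the 18 libraries, after the mean of each line was subtracted, their log2 levels had a Pearson correlation of 0.754. Within Panc1 both were highest in the Paraclone libraries, and how far the correlation rests on these was not tested. Among the Panc89 Holoclone libraries, the one highest in CDH1 (107 TPM) was the lowest in CDH3 (130 TPM). The 20 tested genes nearest to CDH3, within 0.659 Mb and CDH1 among them, gave a median of 0.35 for Panc1 Holoclone against Paraclone on the log2 scale, beside 0.19 for all genes tested.

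N-cadherin (CDH2), the cadherin of neural and mesenchymal cells, was highest in the Holoclone cells of each line. It measured 4.35, 5.28 and 4.38 TPM in parental Panc1 and 3.09, 2.46 and 3.75 TPM in parental Panc89. The log2 difference between the parental lines was -0.48 with a 95% interval of -1.08 to 0.13 (adjusted p = 0.153), although every parental Panc89 library lay below every parental Panc1 library. With these 2 groups fitted alone the same difference was called (adjusted p = 0.0339). The 6 group means ran from Panc1 Paraclone at the bottom through parental Panc89, Panc89 Paraclone, parental Panc1 and Panc89 Holoclone to Panc1 Holoclone at the top. The libraries of Panc89 Paraclone overlapped with those of both parental groups and of Panc89 Holoclone, and the Holoclone libraries of the 2 lines overlapped with each other.

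Panc1 Holoclone libraries held 11.5, 16.3 and 13.6 TPM of CDH2 and Panc1 Paraclone libraries 1.82, 1.09 and 1.24 TPM. The 2 clones lay on either side of the parental cells with no overlap in either direction. The mean TPM of the Holoclone was 9.97 times that of the Paraclone, or 2.63 on the log2 scale (SE 0.283, adjusted p = 3.44e-06). Against the parental cells CDH2 rose by 1.38 in the Holoclone (adjusted p = 0.0045) and was 1.26 lower in the Paraclone (log2 fold change -1.26, adjusted p = 0.00379).

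Panc89 Holoclone libraries held 11.7, 7.03 and 6.21 TPM of CDH2, all above the parental libraries, with a ratio of means of 2.68, or 1.15 on the log2 scale (adjusted p = 0.00736). Panc89 Paraclone libraries held 2.42, 7.02 and 2.74 TPM, so 1 of them reached the Holoclone range. The Holoclone was higher than the Paraclone by 0.95 (adjusted p = 0.0161). This call ended without Holoclone replicate 1 (0.70, adjusted p = 0.0749), without Paraclone replicate 1 (0.72, adjusted p = 0.0854) or without Paraclone replicate 3 (0.79, adjusted p = 0.0768). It also ended when the 2 groups were fitted alone (adjusted p = 0.161).

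The upstream sequence of CDH2 is shown because it is the only member whose RNA separated the Panc1 clones in both directions from the parental cells and for which RefSeq windows were at hand. CDH2 lies on the minus strand of chromosome 18, at 27932879 to 28177946 of GRCh38, and 2 start sites of the gene had a window of 250 bases before the start in the RefSeq set used (GRCh38.p14). Capitals mark matches on either strand to 3 motifs. The first is the E-box with the letters CANNTG. The second is CCAAT. The third, a TATA-like element, is TATAAA. No match of one overlaps a match of another in these windows. Both windows lie inside the span of the gene as GENCODE 44 draws it and overlap none of its exons.
CDH2 upstream window chr18:28177131-28177380, minus strand: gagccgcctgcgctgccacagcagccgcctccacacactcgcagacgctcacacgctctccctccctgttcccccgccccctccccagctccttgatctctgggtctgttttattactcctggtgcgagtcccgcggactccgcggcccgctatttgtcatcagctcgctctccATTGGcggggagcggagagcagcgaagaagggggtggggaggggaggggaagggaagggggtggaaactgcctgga
CDH2 upstream window chr18:28036642-28036891, minus strand: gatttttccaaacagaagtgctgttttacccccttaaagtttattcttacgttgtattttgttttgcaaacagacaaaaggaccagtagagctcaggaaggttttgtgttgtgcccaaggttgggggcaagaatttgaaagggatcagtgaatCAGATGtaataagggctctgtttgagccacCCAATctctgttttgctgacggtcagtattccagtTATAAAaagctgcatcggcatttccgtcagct
The first window held 1 match to CCAAT, on the opposite strand, 76 bases before the start. The second held 1 match to each motif, the E-box 97, the CCAAT 67 and the TATAAA 32 bases before its start. Among 35116 such windows of all genes in the set, 61.8% held an E-box, 32.0% the second motif and 10.7% the third. Which start the deposited gene-level values came from cannot be read from them. Of the 10 members, CDH2, CDH4 and CTNNA1 were in the set.

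OB-cadherin (CDH11), a type II cadherin of mesenchymal and bone-forming cells, was higher in Holoclone cells than in Paraclone or parental cells of both lines. Panc1 Holoclone libraries held 4.28, 3.34 and 3.01 TPM, against 0.436, 0.069 and 0.065 TPM in Panc1 Paraclone and 0.071, 0.563 and 0.237 TPM in parental Panc1. Panc89 Holoclone libraries held 11.2, 3.41 and 5.52 TPM, against 0.507, 0.834 and 0.449 TPM in Panc89 Paraclone and 1.01, 0.854 and 1.08 TPM in parental Panc89. In neither line did a Holoclone library overlap with a library of the other 2 variants. The log2 fold change of Holoclone against Paraclone was 1.94 in Panc1 (SE 0.276, adjusted p = 5.64e-05) and 2.15 in Panc89 (SE 0.276, adjusted p = 2.11e-05). Against the parental cells CDH11 rose by 1.82 in the Panc1 Holoclone (adjusted p = 0.000421) and by 1.83 in the Panc89 Holoclone (adjusted p = 0.000154).

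These 4 calls held under every alternative computed. Between the lines CDH11 was 0.64 higher in parental Panc89 than in parental Panc1 (adjusted p = 0.0542) and 0.65 higher between Holoclone groups (adjusted p = 0.0509), and with median-of-ratios scaling these became 0.71 (adjusted p = 0.0188) and 0.78 (adjusted p = 0.011). The difference between the Holoclone effects of the 2 lines was 0.21 with a 95% interval of -0.62 to 1.05 (adjusted p = 0.714). CDH2 and CDH11, on chromosomes 18 and 16, had a Pearson correlation of 0.825 over the 18 libraries after the mean of each line was subtracted. CDH2 and CDH17 had one of -0.711, and CDH3 and CDH17 one of 0.965. These correlations are descriptions over libraries that fall into 6 groups.

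**Figure D2:**
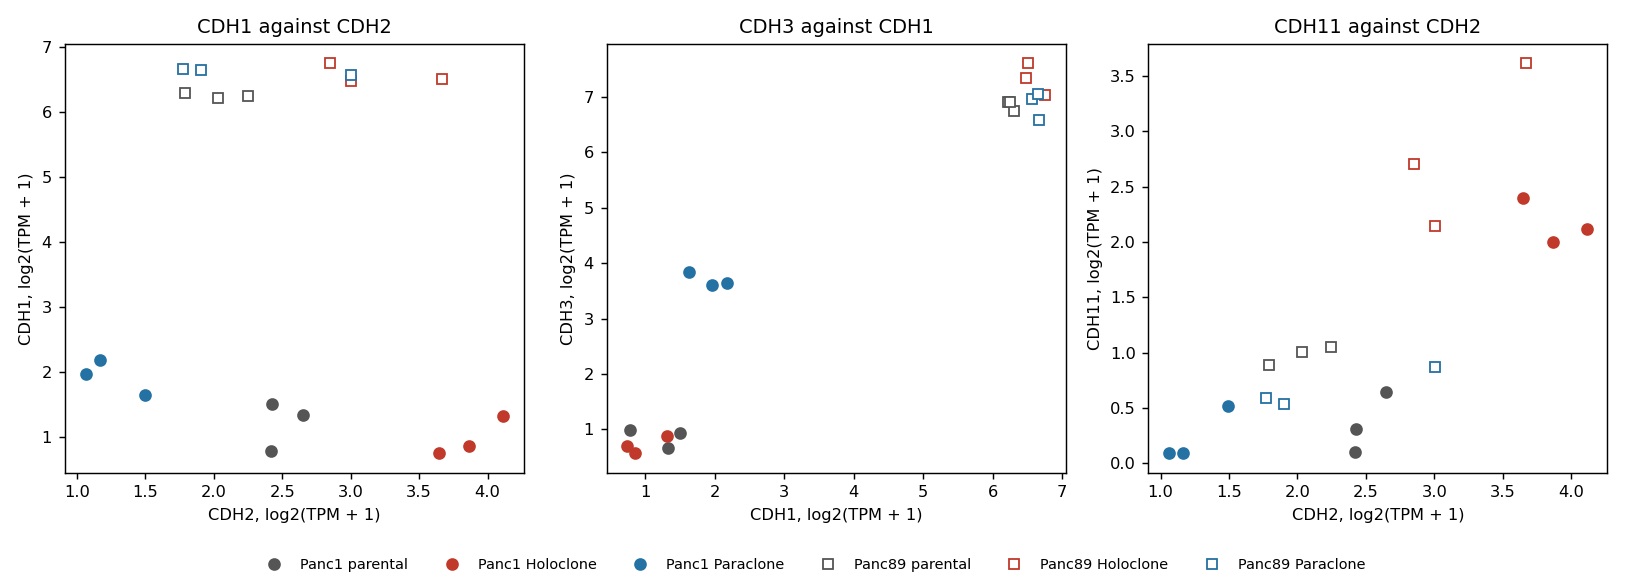
3 pairs of cadherins plotted against each other, each point 1 library, with both axes in log2(TPM + 1) and symbols for the 6 groups (filled for Panc1, open for Panc89). CDH1 sets the lines apart at overlapping CDH2 levels, Panc1 Paraclone libraries stand apart in CDH3, and Holoclone libraries of both lines hold the highest CDH11.

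CDH17 (LI-cadherin, an adhesion molecule of liver and intestine with a short tail that does not bind catenins) exceeded 1 TPM in 1 group of the 6. Panc1 Paraclone libraries held 7.89, 7.61 and 6.03 TPM, and no library of the other 5 groups exceeded 0.369 TPM. CDH17 thus passed the filter of at least 1 TPM in at least 3 libraries only through this group. Its tests against Panc1 Paraclone, here and in the counts below, were therefore not independent of that selection. The value of CDH17 was 0 in 4 of the 9 Panc89 libraries. In Panc1 the log2 fold change of Holoclone against Paraclone was -2.62 (SE 0.124, adjusted p = 2.93e-10) and that of Paraclone against parental cells 2.77 (adjusted p = 3.15e-10). In Panc89 the difference between Holoclone and Paraclone was -0.01 with a 95% interval of -0.27 to 0.26, at levels of no more than 0.094 TPM. The 20 tested genes nearest to CDH17 on chromosome 8 gave a median of 0.21 for the same comparison of Panc1 clones, with 4 of them called beside 37.3% of all genes. Hence CDH3 and CDH17, from different chromosomes, were both high in the Panc1 Paraclone while CDH2 was lowest there.

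T-cadherin (CDH13), which is held in the membrane by a lipid anchor and has no cytoplasmic tail, was measured mainly in Panc89. All 9 Panc1 libraries were at or below 0.321 TPM. Parental Panc89 libraries held 1.45, 1.32 and 1.96 TPM, Panc89 Holoclone libraries 2.23, 8.53 and 11.2 TPM and Panc89 Paraclone libraries 3.97, 1.44 and 3.02 TPM. CDH13 was higher in Panc89 than in Panc1 by 1.22 between parental cells (adjusted p = 0.00763), by 2.62 between Holoclone groups (adjusted p = 1.05e-05) and by 1.76 between Paraclone groups (adjusted p = 0.000573). Holoclone replicate 1 of Panc89 stood well below the other 2 and inside the Paraclone range. Against parental Panc89 the Holoclone was higher by 1.49 (adjusted p = 0.00666), a call lost when these 2 groups were fitted alone (adjusted p = 0.0971). Against the Paraclone the difference of 0.98 (SE 0.363, adjusted p = 0.0459) was lost under 10 alternatives, among them without Holoclone replicate 2 or 3 and without Paraclone replicate 2 or 3 (0.60 to 1.05), with adjusted p-values over all alternatives between 0.000139 and 0.272.

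CDH4 (R-cadherin) and CDH6 (K-cadherin of kidney) were near 0 and were not tested. CDH4 was listed at no more than 0.0421 TPM in any library and at 0 in all 3 Panc1 Holoclone libraries. CDH6 reached 0.708, 0.438 and 0.143 TPM in Panc89 Holoclone and 0.0861, 0.236 and 0.189 TPM in Panc1 Holoclone libraries, and no more than 0.131 TPM elsewhere.

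Alpha-catenin (CTNNA1) was the member with the most even level. It measured 244.8, 213.8 and 249.5 TPM in parental Panc1, 239.6, 223.6 and 235.7 TPM in Panc1 Holoclone and 227.0, 217.3 and 222.7 TPM in Panc1 Paraclone. It measured 286.1, 277.9 and 283.6 TPM in parental Panc89, 218.5, 234.6 and 270.2 TPM in Panc89 Holoclone and 240.9, 235.9 and 223.9 TPM in Panc89 Paraclone. Parental Panc89 libraries were thus the highest of the 18. Holoclone against Paraclone gave 0.07 in Panc1 (95% interval -0.12 to 0.26) and 0.04 in Panc89 (95% interval -0.15 to 0.23). The sign of both turned under upper quartile scaling, to -0.18 and -0.07, and under median-of-ratios scaling, to -0.21 and -0.10. CTNNA1 was higher in parental Panc89 than in parental Panc1 by 0.26 (adjusted p = 0.0176), a call lost without parental Panc1 replicate 2 (0.19, adjusted p = 0.0829) or parental Panc89 replicate 1 (0.25, adjusted p = 0.0502). It was lower in Panc89 Paraclone than in parental Panc89, at -0.27 (adjusted p = 0.0425), and this call was lost without any 1 of the 6 libraries.

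p120-catenin (CTNND1) was raised in the Panc89 Holoclone. Its 3 libraries held 309.7, 240.2 and 223.4 TPM, and no library of the other 5 groups exceeded 140.4 TPM. Parental Panc89 held 127.1, 128.0 and 129.6 TPM and Panc89 Paraclone 133.8, 139.3 and 136.2 TPM. The Panc89 Holoclone had 1.89 times the mean TPM of the Paraclone (log2 fold change 0.90, SE 0.126, adjusted p = 4.83e-05) and 2.01 times that of the parental cells (0.99, adjusted p = 3.24e-05). Against the Panc1 Holoclone it was higher by 1.10 (adjusted p = 1.31e-06). The levels of the parental lines differed by 0.04 with a 95% interval of -0.23 to 0.30.

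In Panc1 the lowest CTNND1 belonged to the Paraclone, at 80.7, 84.2 and 103.3 TPM, with parental libraries at 140.4, 110.8 and 125.6 TPM and Holoclone libraries at 126.4, 112.0 and 117.2 TPM. Holoclone against Paraclone gave 0.41 (adjusted p = 0.0175), and Paraclone against parental cells gave -0.49 (adjusted p = 0.009). Both values depended on the scaling. The median of all genes tested was itself 0.19 higher in Panc1 Holoclone than in Paraclone cells, and 0.01 higher after upper quartile scaling. With upper quartile and median-of-ratios scaling the CTNND1 difference between the clones was 0.16 and 0.14 (adjusted p = 0.365 and 0.418), and that between Paraclone and parental cells -0.30 and -0.26 (adjusted p = 0.099 and 0.122). The first call was also lost without Holoclone replicate 1 (0.36, adjusted p = 0.0671), Paraclone replicate 1 (0.34, adjusted p = 0.0679) or Paraclone replicate 2 (0.37, adjusted p = 0.0678), and the second without parental replicate 1 (-0.40, adjusted p = 0.0505).

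Because TPM correct for transcript length, the cadherins could be added up within each library. The summed level of the 8 cadherins came to 7.51 ± 0.957 TPM (SD, n = 3) for parental Panc1, 19.7 ± 2.78 for its Holoclone and 23.8 ± 1.79 for its Paraclone. In Panc89 it was 196 ± 6.04 TPM in parental, 280 ± 26.3 in Holoclone and 223 ± 18.3 in Paraclone cells. No Panc1 library reached a Panc89 library, and both Panc1 clones lay above their parental cells.

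Among the members counted, CDH2 led this sum in parental and Holoclone Panc1, and CDH3 led it in the other 4 groups. CDH24 is not a member and was not counted. It averaged 5.97 TPM in parental Panc1, above CDH2 at 4.67 TPM. In Panc1 Holoclone it averaged 5.57 TPM, below CDH2 at 13.8 TPM. The shares are thus of the members' sum and not of all cadherin RNA. In parental Panc1, CDH2 held 62.4% ± 5.47 (SD, n = 3) of this sum, CDH1 17.6% and CDH3 11.3%. In the Panc1 Holoclone, CDH2 held 70.0% ± 4.28 and CDH11 18.4%, with CDH1 at 4.90%. In the Panc1 Paraclone, CDH3 held 50.6% ± 1.63, CDH17 30.2% and CDH1 12.1%, and CDH2 was down to 5.77%. All 3 Panc89 groups were led by CDH3 (52.4% to 58.6%) and CDH1 (34.3% to 44.2%). Even in the Panc89 Holoclone, whose CDH2 and CDH11 were above the parental levels, these 2 genes held 2.92% and 2.34% of the sum.

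**Figure D3:**
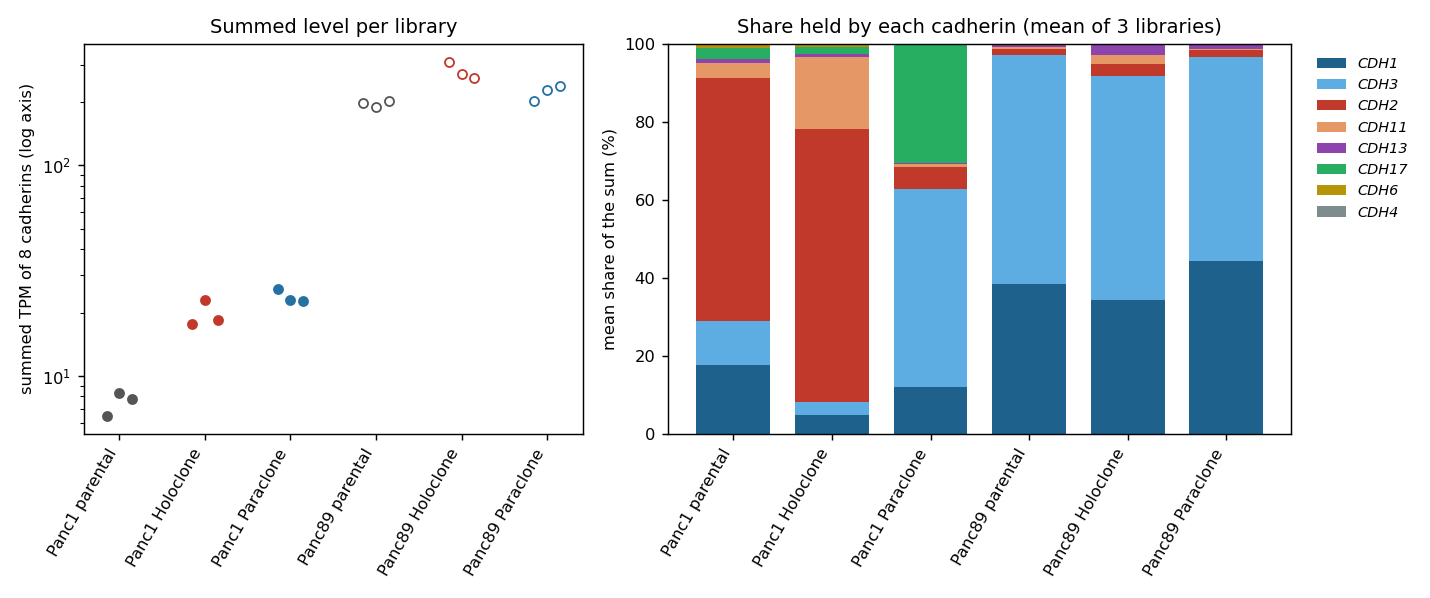
Left, summed TPM of the 8 cadherin members in each library on a log axis. Right, mean share of that sum held by each cadherin in each group (n = 3, in percent, bars from 0 to 100). CDH24 is not counted. Among the members, CDH2 leads in parental and Holoclone Panc1, CDH3 with CDH17 in Panc1 Paraclone, and CDH3 with CDH1 in the 3 Panc89 groups.

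The balance of E- to N-cadherin within a library, as the difference of the log2(TPM + 1) levels of CDH1 and CDH2, came to -1.30 ± 0.354 (SD, n = 3) for parental Panc1 and -2.90 ± 0.107 for its Holoclone. It was positive in Panc1 Paraclone, at 0.68 ± 0.472, with a lowest library of 0.14. In Panc89 it was 4.23 ± 0.261 in parental, 3.41 ± 0.535 in Holoclone and 4.40 ± 0.727 in Paraclone cells, where the ranges of the 3 groups overlapped in part. Among the Panc1 groups the summed mesenchymal markers were lowest in the Holoclone, where this balance was lowest too. For each TPM of the summed cadherins, parental Panc1 held 17.1 TPM of CTNND1, Panc1 Holoclone 6.13 and Panc1 Paraclone 3.79, while Panc89 groups held 0.615 to 0.916. The sum counts CDH13, which has no cytoplasmic tail, and CDH17, whose tail does not bind catenins. CDH17 held 30.2% of the sum in Panc1 Paraclone. CDH24 was left out, so these ratios depend on which cadherins are counted.

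The question behind the clone comparisons was whether Holoclone and Paraclone cells of a line differ, and whether they do so alike in a mesenchymal and an epithelial line. In Panc1, 3 members were higher in Holoclone than in Paraclone cells (CDH2, CDH11 and CTNND1) and 3 were lower (CDH1, CDH3 and CDH17), of 8 tested. Of all genes tested, 37.3% were called in that comparison, 27.4% higher and 9.97% lower. In Panc89, 5 members were higher (CDH2, CDH3, CDH11, CDH13 and CTNND1) and 0 lower by limma at an adjusted p under 0.05, beside 35.7% of all genes called, 22.4% higher and 13.3% lower. The calls of CDH3 and CDH13 ended under both other scalings, which left 3. Among all genes called, the share that was higher in Holoclone cells was 73.3% in Panc1 and 62.8% in Panc89, and became 51.3% and 52.5% with upper quartile scaling and 47.7% and 49.3% with median-of-ratios scaling.

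**Figure D4:**
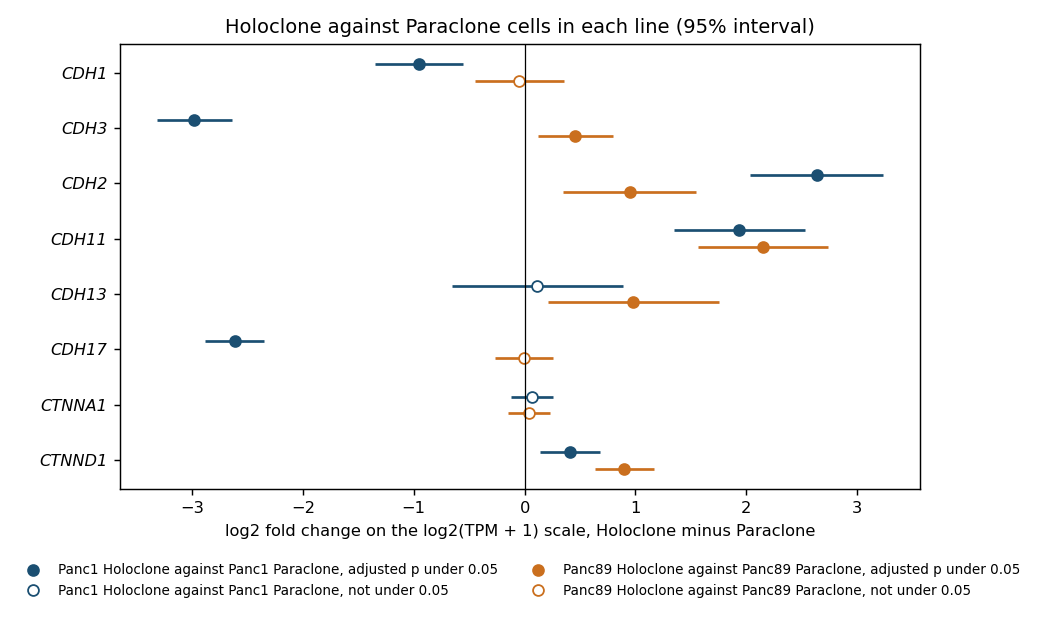
Log2 fold change of Holoclone against Paraclone cells for the 8 members tested, on the log2(TPM + 1) scale, with 95% intervals from the limma fit, in Panc1 and in Panc89 (3 against 3 libraries each). Filled points have an adjusted p under 0.05. CDH11 lies at 1.94 and 2.15 in the 2 lines, whereas CDH3 and CDH17 lie at -2.98 and -2.62 in Panc1 and at 0.46 and -0.01 in Panc89.

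Whether the effect differed between the clone pairs of the lines was tested directly, as the Holoclone against Paraclone change in Panc89 minus that in Panc1. With 1 clone in each group, a difference between lines cannot be told apart from one between clones. The effect differed for 5 of 8 members, beside 35.1% of all genes tested. CDH3 and CDH17 led, with differences of 3.44 (adjusted p = 2.08e-08) and 2.61 (adjusted p = 2.72e-08), followed by CDH2 with -1.69 (adjusted p = 0.004) and CDH1 with 0.90 (adjusted p = 0.0154). CDH17 passed the filter only through Panc1 Paraclone and lay at or below 0.094 TPM in both Panc89 clones. Its difference therefore repeats the Panc1 value and tells nothing of a change in Panc89. CTNND1 gave 0.49 (adjusted p = 0.0433), lost under 12 alternatives at adjusted p-values up to 0.114, among them all but 3 of the libraries left out singly (Panc1 Holoclone replicate 1, Panc1 Paraclone replicate 1 and Panc89 Holoclone replicate 3). For CDH13 the difference was 0.87 (95% interval -0.23 to 1.96), and it became 1.45 (adjusted p = 0.00257) without Panc89 Holoclone replicate 1.

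The clones were also compared with the parental cells of their line. In the Panc1 Holoclone 2 of 8 members rose (CDH2 and CDH11), beside 10.9% of all genes called, 5.87% higher and 5.06% lower. In the Panc1 Paraclone CDH1, CDH3 and CDH17 were higher and CDH2 and CTNND1 lower, beside 28.6% of all genes called, 7.31% higher and 21.3% lower. In the Panc89 Holoclone 5 members were higher (CDH2, CDH3, CDH11, CDH13 and CTNND1), beside 24.7% of all genes called, 16.1% higher and 8.61% lower, though the CDH3 call of 0.48 (adjusted p = 0.0391) was lost under 11 alternatives, including without any 1 parental library, without Holoclone replicate 1 (0.34, adjusted p = 0.144) and without Holoclone replicate 2 (0.47, adjusted p = 0.0987). In the Panc89 Paraclone only CTNNA1 was called, lower, beside 19.4% of all genes. Both clones of a line were compared with the same 3 parental libraries. Of all genes called in Panc1 Paraclone against parental cells 25.6% were higher, and 47.4% and 53.0% with upper quartile and median-of-ratios scaling. In Panc89 Holoclone against parental cells the share of 65.2% became 51.3% and 51.0%.

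Between the lines, the members called depended on the variant compared. Parental cells gave 4 members higher in Panc89 (CDH1, CDH3, CDH13 and CTNNA1) and 0 lower by limma at an adjusted p under 0.05, beside 66.0% of all genes called, 27.5% higher and 38.5% lower. Holoclone cells gave 4 higher (CDH1, CDH3, CDH13 and CTNND1) and 2 lower (CDH2 and CDH17), beside 65.8% of all genes called, 29.3% higher and 36.4% lower. The CDH2 difference of -0.70 (adjusted p = 0.0397) was lost under 9 alternatives, among them without replicate 2 or 3 of either Holoclone group (-0.54 to -0.71). That of CDH17, -0.37 (adjusted p = 0.0156), lay between groups at or below 0.369 TPM and was lost with the replicate block (-0.40, adjusted p = 0.0732). Paraclone cells gave 5 higher (CDH1, CDH2, CDH3, CDH13 and CTNND1) and 1 lower (CDH17 at -2.98, adjusted p = 8.09e-12), beside 60.7% of all genes called, 30.2% higher and 30.4% lower. The CDH2 difference between Paraclone groups, 0.99 (adjusted p = 0.0069), was lost when the 2 groups were fitted alone (adjusted p = 0.0551). Among genes called between the parental lines 41.6% were higher in Panc89, and 51.8% with median-of-ratios scaling.

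The proteins that cadherins bind were read from a list of 20 other catenins and junction plaque genes, of which 19 were tested. In Panc1, 10 were higher and 2 lower in Holoclone than in Paraclone cells, beside 27.4% and 9.97% of all genes, with a median of 0.39 beside 0.19. The largest changes were PLEKHA7 (2.01, adjusted p = 5.15e-06), which tethers microtubules to the junction through p120-catenin, the adhesion receptor NECTIN3 (1.89, adjusted p = 9.01e-07) and the p120 relative PKP4 (1.38, adjusted p = 5.22e-06). Beta-catenin (CTNNB1) and plakoglobin (JUP), the direct partners of the cadherin tail, were 0.39 and 0.45 higher (adjusted p = 0.0154 and 0.0124). The other scalings were read for the members only, so whether the calls of these plaque genes depend on the scaling was not tested. In Panc89, 5 were higher and 3 lower, beside 22.4% and 13.3% of all genes, with a median of 0.03 beside 0.09, so that the 8 called stood near the background of 35.7%. There the neuronal p120 relative CTNND2 led (2.98, adjusted p = 3.31e-09), with 8.30 TPM in Holoclone and 0.167 TPM in Paraclone cells, followed by NECTIN1 (2.60, adjusted p = 1.62e-08) and another p120 relative, ARVCF (2.08, adjusted p = 5.91e-07). CTNNB1 and JUP gave -0.16 and 0.09 in Panc89 (adjusted p = 0.303 and 0.616). Neuronal alpha-catenin (CTNNA2) was 6.76 TPM in parental Panc1 and at most 0.0767 TPM on average in the other 5 groups, both Panc1 clones included.

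Of 14 regulators of CDH1 transcription 13 were tested. Between the parental lines 8 were higher and 1 lower in Panc89, beside 27.5% and 38.5% of all genes, with a median of 1.24 beside -0.18. The 9 called of 13 were close to the background of 66.0% in either direction. The largest changes were those of transcription factors of epithelial cells, ELF3 (5.28, adjusted p = 1.09e-10), GRHL2 (4.74, adjusted p = 7.91e-12) and OVOL1 (4.25, adjusted p = 9.87e-13), and the repressor ZEB1 was the 1 gene lower, at -4.11 (adjusted p = 1.6e-09). Other repressors of CDH1 were higher in parental Panc89, with SNAI2 at 3.32 (adjusted p = 1.23e-10, 10.4 against 0.127 TPM), SNAI1 at 1.24 (adjusted p = 1.72e-05, 2.47 times the mean TPM) and TWIST2 at 0.77 (adjusted p = 0.0115, 4.09 against 2.04 TPM). Between the Panc1 clones 4 were higher and 4 lower in the Holoclone, beside 27.4% and 9.97% of all genes. ELF3, at 1.43 TPM in Holoclone and 28.5 TPM in Paraclone cells, gave -3.57 (adjusted p = 7.89e-08), the E-box binding factor TCF4 gave 2.50 (adjusted p = 1.01e-06) and KLF4 gave -1.77 (adjusted p = 0.000601). GRHL2 stayed at 0.0297 to 0.229 TPM in the Panc1 groups. Between the Panc89 clones 3 were higher and 5 lower, beside 22.4% and 13.3%. The repressor SNAI1, at 0.969 TPM in Holoclone, 10.2 TPM in Paraclone and 27.1 TPM in parental Panc89, gave -2.50 for Holoclone against Paraclone (adjusted p = 4.71e-08), OVOL2 gave -1.91 (adjusted p = 3.01e-07) and KLF4 gave 1.87 (adjusted p = 0.000415).

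Genes for cadherin cleavage and turnover formed a list of 12, all tested. In Panc1, 3 were higher and 1 lower in Holoclone than in Paraclone cells, which is no larger a share than the 37.3% called among all genes, among them ADAM15 at -1.37 (adjusted p = 0.000474) and the endocytic adaptor NUMB at 0.59 (adjusted p = 5.08e-05). In Panc89, 2 were higher and 1 lower, beside 35.7% of all genes called, among them ADAM10, the main sheddase of E-cadherin, at 0.49 (adjusted p = 0.000713) and PSEN2 at -0.98 (adjusted p = 5.52e-05). The median of this list was -0.04 in Panc1 and 0.00 in Panc89, beside 0.19 and 0.09 for all genes.

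Of 14 further classical, type II and truncated cadherins, 3 passed the filter. CDH8 was measured mainly in Panc89, at 4.15 TPM in parental, 9.14 in Holoclone and 5.13 in Paraclone cells against at most 0.139 TPM on average in Panc1, and gave 0.72 for Panc89 Holoclone against Paraclone (adjusted p = 0.00398). VE-cadherin (CDH5) of endothelium averaged 3.78 TPM in parental Panc89, 0.392 in its Holoclone and 1.59 in its Paraclone, the same order as PECAM1 at 60.1, 0.856 and 4.54 TPM, and the part of other cells in these values was not tested. Of 26 atypical and unclustered members of the superfamily 14 were tested. In Panc1, 5 were higher and 5 lower in Holoclone than in Paraclone cells, beside 27.4% and 9.97% of all genes, led by PCDH7 (-3.19, adjusted p = 2.19e-05). In Panc89, 6 were higher and 0 lower by limma at an adjusted p under 0.05, beside 22.4% and 13.3%, led by FAT2 (2.39, adjusted p = 1.25e-06), CELSR2 (1.58, adjusted p = 0.000275) and FAT1 (1.42, adjusted p = 0.000104).

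The genes most like each member were sought by the Pearson correlation of log2 levels over the 18 libraries after the mean of each line was subtracted, among 11067 tested genes with a mean of at least 5 TPM. CDH3 and CDH17 shared DUSP4 (0.981 and 0.969) and HGF (0.976 and 0.987) among their 3 closest genes. CDH2 was closest to TTI2 (0.960), MED20 (0.959) and FCF1 (0.949), and CDH11 to GIT1 (0.952), CHURC1 (0.939) and SF3B2 (0.933). CTNND1 was closest to ZDHHC7 (0.951), SSH1 (0.950) and ETAA1 (0.931), and CDH13 to RPLP0P2 (0.968), IL1A (0.943) and BCRP9 (0.934). The closest genes of CDH1 (EHBP1, 0.863) and CTNNA1 (XAF1, 0.844) were less alike. These values rest on 6 groups of 3 libraries and carry no test.

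The remaining positions on GRCh38 were chromosome 16, 64943753 to 65126112 on the minus strand for CDH11 and 82626965 to 83800640 for CDH13, chromosome 5, 138610967 to 138935034 for CTNNA1, and chromosome 11, 57753243 to 57819546 for CTNND1. Of the 20 tested genes nearest to CDH13, 15 were called in Panc89 Holoclone against parental Panc89, beside 24.7% of all genes, with a median of 0.92 beside 0.08 for all genes. The 20 nearest to CTNND1 had a median of 0.53 for Panc89 Holoclone against Paraclone with 11 called, and the 20 nearest to CDH1 one of 0.68 with 13 called, beside 35.7% of all genes, while CDH1 itself gave -0.05. The part of the gene neighbourhood in the member values was not tested.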

How the data were processed

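Gene expression was measured by polyA RNA sequencing of 18 libraries, 3 for each of 6 groups, which were assigned from the deposited labels. The authors quantified transcripts with kallisto 0.46.1 against Ensembl GRCh38, imported them with tximport and deposited 1 table of log2(TPM + 1) values per gene symbol. Raised back from log2, the deposited TPM of each library sum to 985339 to 988066. Library depth was therefore unknown. CDH3 and CTNNA1 each have an antisense gene in the table, and whether quantification used strand is not given in the sources used here.

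The 10 members and all gene lists were chosen with earlier results of these data known. The deposited log2 values were fitted with limma 3.58.1 in R 4.3.3 (moderated test with a mean-variance trend) on 6 group means over all 18 libraries, for the 16093 genes that reached 1 TPM in 3 or more libraries. p-values were adjusted over all genes tested by the Benjamini-Hochberg method, with a threshold of 0.05. Of 10 comparisons, 1 was the interaction of line and clone. The fit was tested on simulated data with known changes. Descriptions of TPM, shares and positions (GENCODE 44, GRCh38) were computed in Python 3.11.15, and upstream windows came from RefSeq (GRCh38.p14).

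Named genes were the members, up to 3 genes of each list with the largest log2 fold change among those called in a comparison described, and up to 3 genes most correlated with each member. CTNNB1, JUP, ZEB1 and the parental values of SNAI1, SNAI2 and TWIST2 were named after their values were seen. So were the values of CDH24, CTNNA2 and GRHL2 by group. For 1 gene that the rule named, the values are not reported here. Replicate numbers showed no strong pairing of the libraries. Over 18 pairs of libraries of a line with the same number, deviations from the group means correlated at -0.318 to 0.190. Pairs with different numbers were not set beside them, so whether libraries were handled together cannot be read from this. Alternatives were log2(TPM + 0.1), no filter on low values, upper quartile and median-of-ratios scaling, a replicate block within each line, the compared groups alone, and each library left out in turn. The values of the 7 members without an upstream window in the set used were described without sequence.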

Additional observations from a re-analysis of the deposited data

Results flagged for a closer look

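The change from Paraclone to Holoclone cells differed between the Panc89 and the Panc1 clone pair for 5 of the 8 members tested, by the interaction term of the limma fit. Differences between lines and between single clones cannot be told apart here. Of all genes tested, 35.1% were called by the same term. Given as the change in Panc89 minus that in Panc1, the differences were 3.44 for CDH3 (adjusted p = 2.08e-08), 2.61 for CDH17 (adjusted p = 2.72e-08), -1.69 for CDH2 (adjusted p = 0.004), 0.90 for CDH1 (adjusted p = 0.0154) and 0.49 for CTNND1 (adjusted p = 0.0433). For CDH1, CDH3 and CDH17 the Panc1 change carried the difference, with -0.95, -2.98 and -2.62 in Panc1 and -0.05, 0.46 and -0.01 in Panc89. CDH17 was near 0 in both Panc89 clones and passed the filter only through Panc1 Paraclone, so its difference repeats the Panc1 value. CDH2 was higher in Holoclone cells of both lines, by 2.63 in Panc1 and 0.95 in Panc89. The 4 cadherin differences kept their call under every alternative computed, and that of CTNND1 did not.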

How the results depend on the processing

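Of 45 called values of the members, 30 kept their call under every alternative. Over the 570 alternatives of called values 0 changed sign and 83 ended the call. Over the 438 alternatives of the 35 values not called, 29 changed sign and 17 brought a call. The number of members called for Panc89 Holoclone against Paraclone, 5, became 3 with log2(TPM + 0.1), with upper quartile scaling, with median-of-ratios scaling and with the replicate block, and 2 with the groups compared alone, where 3377 of all genes were called in place of 5746. With the replicate block, 2 of 4 members were called for the parental lines, where CDH13 (0.98, adjusted p = 0.104) and CTNNA1 (0.20, adjusted p = 0.209) were lost, and 0 of 1 for Panc89 Paraclone against parental cells, which was also 0 under both scalings and 2 with the groups alone. The groups alone gave 3 in place of 5 for Panc1 Paraclone and for Panc89 Holoclone against parental cells. The replicate numbers showed no strong pairing of libraries, and no other member count moved by over 1.5 times with the block.

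Leaving out 1 library gave 3 to 4 members for Panc89 Holoclone against Paraclone, 3 to 5 for Panc1 Paraclone against parental cells and 0 to 0 for Panc89 Paraclone against parental cells. All genes called for Panc1 Holoclone against parental cells ranged from 1061 (without Holoclone replicate 3) to 1571, beside 1759.

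Signs turned for values that were not called. CTNNA1 changed sign with upper quartile scaling for Panc1 Holoclone against Paraclone (-0.18), Panc89 Holoclone against Paraclone (-0.068), Panc1 Paraclone against parental cells (0.11) and the interaction (0.11), with median-of-ratios scaling for the same 4 (-0.21, -0.10, 0.15 and 0.11) and with the replicate block between Holoclone groups (-0.022). The interaction of CDH11 was -0.71 with log2(TPM + 0.1). With 1 library left out, 13 values, 4 of them among those above, crossed 0, within these ranges: CTNNA1 for Panc1 Holoclone against parental cells (-0.086 to 0.026), between Holoclone groups (-0.041 to 0.11), for Panc89 Holoclone against Paraclone (-0.044 to 0.11) and for the interaction (-0.11 to 0.042), CTNND1 for Panc1 Holoclone against parental cells (-0.16 to 0.0051) and between parental lines (-0.050 to 0.12), CDH11 for Panc1 Paraclone against parental cells (-0.26 to 0.033) and the interaction (-0.18 to 0.55), CDH13 for Panc1 Paraclone against parental cells (-0.092 to 0.032), CDH3 and CDH2 for Panc89 Paraclone against parental cells (-0.074 to 0.16 and -0.19 to 0.43), and CDH17 and CDH1 for Panc89 Holoclone against Paraclone (-0.047 to 0.035 and -0.13 to 0.00024).

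TPM keep no depth, so the error of levels under 1 TPM, which covers CDH4, CDH6 and most CDH17 values, could not be given. Each clone group is 1 clone, and clone and passage history cannot be told apart.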
